A study of Caenorhabditis elegans with 2 samples.

Results

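EFL-1 is an E2F transcription factor of the worm. The 7 genes described here encode proteins that build or guard the centromere and the kinetochore on top of it. The genes are hcp-1, hcp-2, hcp-3, hcp-4, cpar-1, knl-2 and sgo-1, grouped by their known function, in a list drawn up with earlier results of these data known, and they are 7 of 19973 nuclear protein-coding genes of Caenorhabditis elegans. The data are chromatin immunoprecipitation with sequencing (ChIP-seq) on whole young adult hermaphrodites of strain YL478, a transgenic line that stably expresses EFL-1 with GFP and FLAG at its C terminus, with an antibody against GFP (1 label names the antibody after efl-1 instead). There was 1 group with 2 biological replicates and no contrast between conditions, and the labelled age is unknown. Whole animals mix germ line and soma, so the tissue that carries a peak cannot be read from these lists. For the transgene, the labels used here name neither the driving promoter nor a copy number. A gene was given a peak when the summit of a region in the authors' thresholded list (the optimal list, 2825 peaks) lay within 1000 bp of one of its annotated start sites. Strength is the authors' signal value per peak, on a scale that the labels and lists do not state, and read depth is unknown.

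Worm chromosomes are holocentric, which means that the kinetochore forms along the length of each chromosome. As general background, a variant of histone H3, called CENP-A in vertebrates and HCP-3 in the worm, marks the chromatin on which the kinetochore is built. KNL-2 works with HCP-3 in its deposition, HCP-4 (the worm CENP-C) links that chromatin to outer layers, and HCP-1 with its relative HCP-2 resembles CENP-F and brings the CLASP protein CLS-2 to the kinetochore. HCP-1 and HCP-2 thus act in the outer part, so the group spans more than the inner layer. CPAR-1 is a close relative of HCP-3 that is found on meiotic chromosomes, and SGO-1 is the worm relative of shugoshin, which protects cohesin at centromeres in other species. E2F factors bind GC-rich sites in promoters of cell cycle genes, and in the DREAM complex they can repress genes whose promoters also hold a cell cycle homology region (CHR).

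The stretches under the summits of 5 of the genes are shown first, since the differences among the peaks are set beside them later. Each runs 60 bp to either side of the summit on build WBcel235 (ce11), 5′ to 3′ in the direction of the gene, and none overlaps an annotated exon. Capitals mark the E2F core, searched as TTCCCGC, as the form TTCGCGC, as the form TTGCCGC and as the form TTGGCGC on either strand; in cpar-1, which has no such core, they mark the bases that align with the core of hcp-3. The windows lie at V:6593849-6593969 (plus strand) for hcp-1, at V:9645640-9645760 (plus) for hcp-2, at III:9617057-9617177 (minus) for hcp-3, at III:9433739-9433859 (plus) for cpar-1 and at IV:7796857-7796977 (minus) for sgo-1.
hcp-1: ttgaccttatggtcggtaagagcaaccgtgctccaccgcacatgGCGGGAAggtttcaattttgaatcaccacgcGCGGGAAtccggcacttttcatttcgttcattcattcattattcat
hcp-2: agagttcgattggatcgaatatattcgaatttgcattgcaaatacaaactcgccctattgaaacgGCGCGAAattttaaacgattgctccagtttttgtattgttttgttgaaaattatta
hcp-3: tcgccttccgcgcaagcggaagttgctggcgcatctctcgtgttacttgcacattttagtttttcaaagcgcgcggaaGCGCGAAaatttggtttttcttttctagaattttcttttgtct
cpar-1: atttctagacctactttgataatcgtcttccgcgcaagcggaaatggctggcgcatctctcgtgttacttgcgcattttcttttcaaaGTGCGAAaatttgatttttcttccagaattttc
sgo-1: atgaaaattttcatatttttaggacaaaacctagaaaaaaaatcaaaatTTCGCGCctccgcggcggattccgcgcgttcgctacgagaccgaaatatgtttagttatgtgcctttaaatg

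All 7 genes had a peak in the optimal list, where 13.8% of protein-coding genes did (2749 of 19973). Since the list was drawn up with results known, this count is a description and not independent support. Their peaks fell into a strong and a weaker set with none between. The peaks of hcp-1, hcp-3, sgo-1 and hcp-4 had signal values from 1233 to 2074, and those of cpar-1, hcp-2 and knl-2 had values from 102 to 154. A signal of at least 1000 within the same distance was found for 63 genes, or 0.315% of all, and 46 of 2802 nuclear peaks reached that level, a bound set after the values were seen. The median over the 7 genes was 1233, against a median of 95.2 over all 2749 genes with a peak. Each of the 7 ranked within the strongest 2825 regions of replicate 1 and of replicate 2, whose lists hold 30000 regions each. The optimal list is itself cut by reproducibility between these replicates, so these ranks add no independent support. The share of all optimal peaks with such ranks was not computed.

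**Figure D1:**
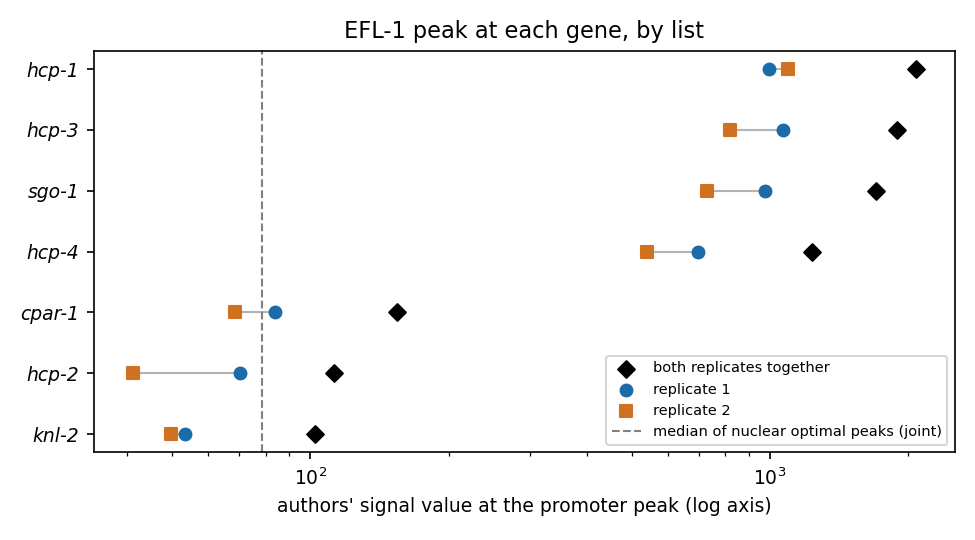
The authors' signal value (log axis) of the peak at each of the 7 genes, in the list called on both replicates (diamonds) and in the lists of replicate 1 (circles) and replicate 2 (squares), with the median of all nuclear optimal peaks in the joint call, 78.4, as a dashed line. In each list hcp-1, hcp-3, sgo-1 and hcp-4 lie above 500 and cpar-1, hcp-2 and knl-2 below 200.

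The centromeric chromatin genes come first by role. At hcp-3 (WBGene00001831, III:9615306-9616470, minus strand), the gene of the centromeric histone, the signal was 1888 at rank 7, with 1067 in replicate 1 and 819 in replicate 2. The peak at III:9616953-9617295 was intergenic, and its summit lay 647 bp upstream of the only annotated start site. The replicate summits fell 4 bp from that of the joint call or on it. The distance is beyond the 500 bp often taken as a promoter, and no other protein-coding gene had a start site within 1000 bp of that summit.

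At cpar-1 (WBGene00010036, III:9434057-9435100, plus strand), the gene of the related histone, the signal was 154 at rank 635. The values were 83.7 at rank 671 in replicate 1 and 68.6 at rank 663 in replicate 2. The peak at III:9433706-9433873 was intergenic, and 258 bp separated its summit from the cpar-1 start. The signal at hcp-3 was 12.2 times that at cpar-1 in the joint list, 12.8 times in replicate 1 and 11.9 times in replicate 2, so the higher value stood at hcp-3 in every list. No test was made between single peaks with 2 replicates.

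The genes of both histones share sequence upstream, in blocks that lie at different distances. Under the summits, 180 base pairs of the 301-bp windows aligned between hcp-3 and cpar-1, of which 157 (87.2%) were identical, and the longest identical run was 26 bases. In the alignment the cpar-1 summit fell 22 bp from the hcp-3 summit, on the side away from the gene. The block runs from 744 to 551 bp upstream of hcp-3 and from 333 to 152 bp upstream of cpar-1. Another block directly before the start sites had 123 of 134 aligned bases identical (91.8%). Between the blocks there were 413 bp at hcp-3 and 15 bp at cpar-1. The block next to the hcp-3 start site held no optimal peak. A joint region with a signal of 17.4 at rank 8836 overlapped it, with its summit 64 bp into the gene. Weak regions of both replicates had summits in the block, with signals of 10.4 in replicate 1 and 11.6 in replicate 2. The strongest other region within 1000 bp of that start in the joint list had a signal of 19.6 at rank 7261 and lay in the gene.

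**Figure D2:**
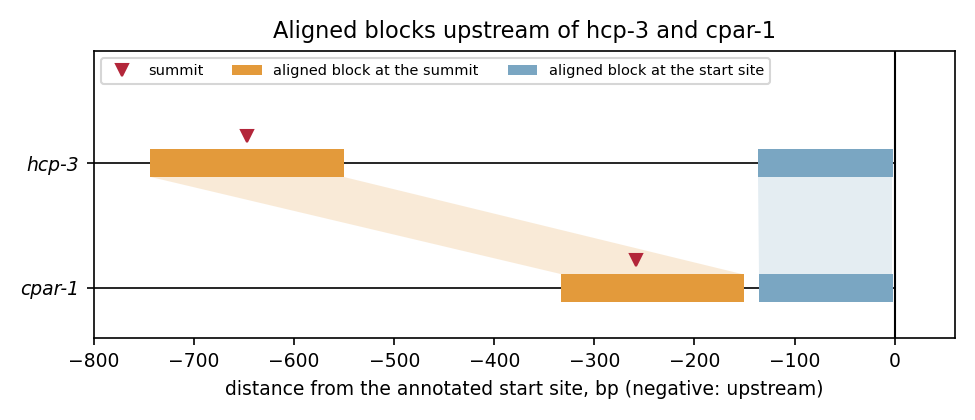
Stretches that align between the upstream regions of hcp-3 (top) and cpar-1 (bottom), drawn by distance in bp from each annotated start site, with the summit of each gene's optimal peak as a triangle. Both summits sit on the block that aligns under them, 647 bp upstream at hcp-3 and 258 bp upstream at cpar-1.

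At the E2F core the sequences of this pair differ. The core of hcp-3 reads GCGCGAA in the direction of the gene and is centred 21 bp from the summit, towards the gene. In cpar-1, 6 of the 7 aligned bases are the same and the difference is C2T, counted from 1 at the 5′ end of the stretch as printed in capitals. A run of 10 bases just before the core in hcp-3 has no counterpart in cpar-1. The TTTGAA next to that run, on the strand opposite to the gene, is present in both. Whether these differences bear on the signal was not tested, and the assignment of reads between such similar loci was not tested either.

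At hcp-1 (WBGene00001829, V:6594194-6599208, plus strand), a CENP-F-like gene, the signal was 2074 at rank 3, above that of the other 6 genes in the joint list and in replicate 2, while in replicate 1 hcp-3 was higher. The values were 995 at rank 8 in replicate 1 and 1096 at rank 2 in replicate 2, the only member peak with the higher value in replicate 2. The peak at V:6593673-6594122 was 450 bp wide, against a median of 290 bp over nuclear optimal peaks, and its summit lay 285 bp upstream of the start site. The weaker joint regions around hcp-1 were each exactly 290 bp wide as well, so that median is a weak yardstick for width. The summits of the joint list and replicate 1 were at the same base and that of replicate 2 was 1 bp away.

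At hcp-2 (WBGene00001830, V:9645859-9650211, plus strand), the related gene, the signal was 113 at rank 953, with 70.5 in replicate 1 and 41.2 in replicate 2. The summit of the peak at V:9645666-9645756 lay 159 bp upstream of hcp-2 and 105 bp upstream of atl-1, a checkpoint kinase gene related to ATR that is transcribed the other way. The peak is therefore nearer to the atl-1 start, and its share for each gene cannot be told apart. The signal at hcp-1 was 18.4 times that at hcp-2 in the joint list, 14.1 times in replicate 1 and 26.6 times in replicate 2. Unlike the histone pair, the summit windows of hcp-1 and hcp-2 aligned over only 19 base pairs, with 18 identical. That alignment left out 5 bases found only in hcp-2, and its longest identical run was 8 bases. How often unrelated windows align as well was not computed.

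At sgo-1 (WBGene00016381, IV:7794857-7796482, minus strand) the signal was 1698 at rank 10, with 974 in replicate 1 and 731 in replicate 2. The summit of the peak at IV:7796683-7797071 was 435 bp upstream of the nearest of the 3 annotated start sites. A pseudogene, WBGene00002221, starts on the other side of the summit at a distance of 275 bp and is thus nearer. Among protein-coding genes sgo-1 was the only one with a start within 1000 bp of that summit.

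The remaining members are hcp-4 and knl-2. At hcp-4 (WBGene00001832, I:3862833-3865938, minus strand), which links centromeric chromatin to the outer kinetochore, the signal was 1233 at rank 31. It was 699 at rank 27 in replicate 1 and 539 at rank 36 in replicate 2. The peak at I:3866451-3866806 was intergenic, 677 bp upstream of hcp-4 and 926 bp upstream of pgk-1, a glycolysis gene on the other strand. These values place hcp-4 lowest of the strong set in all 3 lists.

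At knl-2 (WBGene00019432, I:6460878-6464286, plus strand), needed to load HCP-3, the signal was 102 at rank 1051. The values of 53.3 at rank 1185 in replicate 1 and 49.7 at rank 999 in replicate 2 were close to each other. The peak at I:6460868-6460942 was 75 bp wide. Its summit lay 24 bp downstream of the start site, in an untranslated exon of knl-2, whereas the other 6 summits were upstream of the gene and intergenic. The shares of all optimal peaks in such positions were not computed, so neither position can be called typical or unusual. With a window of 500 bp, hcp-3 and hcp-4 had no peak and 5 of the 7 did, against 10.9% of all genes.

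**Figure D3:**
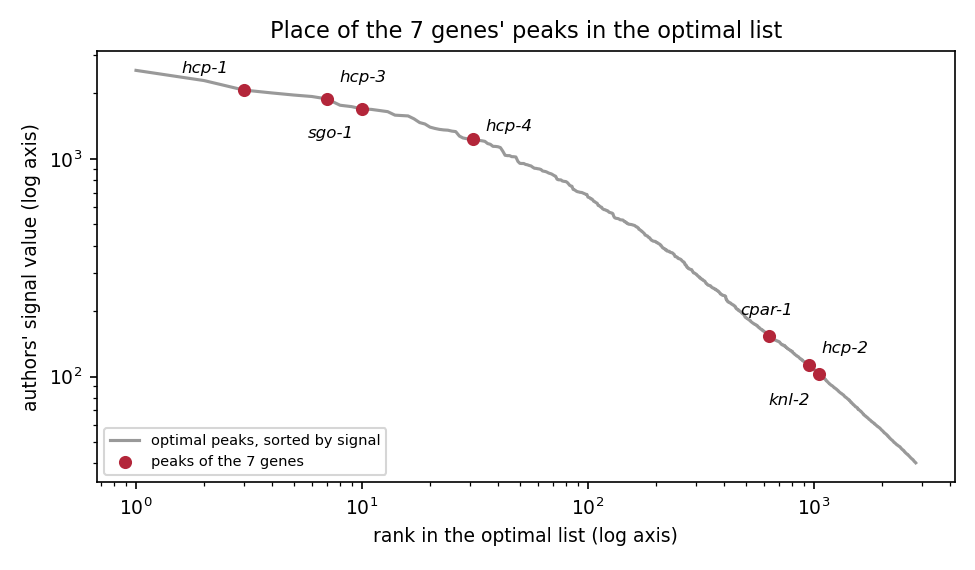
Signal value against rank (both log axes) for all peaks of the optimal list (line), with the peaks of the 7 genes as points. Ranks 3, 7, 10 and 31 belong to hcp-1, hcp-3, sgo-1 and hcp-4, and ranks 635, 953 and 1051 to cpar-1, hcp-2 and knl-2.

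The genes next to the strongest members in rank were of other functions. The peaks ranked directly above and below that of hcp-1 were nearest to the start sites of rib-2 (signal 2293) and rpl-35 (2011). Those around hcp-3 were nearest to pie-1 (1937) and usp-4 (1766), and those around sgo-1 to cpg-2 (1740) and cdc-48.1 (1690). Likeness here is the rank in 1 joint list, and says nothing of shared control.

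The log2 ratio of replicate 1 to replicate 2 ran from -0.14 at hcp-1 to 0.78 at hcp-2, with a median of 0.37. Over 2765 nuclear optimal peaks with a region in both replicates the median was 0.27, with quartiles at -0.14 and 0.71. The value was higher in replicate 1 at 6 of 7 member peaks and at 67.5% of all. The hcp-2 ratio, 1.71 on the linear scale, was thus above the upper quartile of all peaks, the hcp-1 ratio was close to the lower quartile, and the others lay between. The lists were called separately on an unknown scale, so a ratio away from 0 on the log2 scale is not a difference in binding.

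At each gene the assigned peak, called the promoter peak here, was stronger than every other region inside the gene. By rule it is the strongest peak within 1000 bp of a start site. For body regions within that distance the order was therefore fixed in advance. The strongest body region lay within it at hcp-3, cpar-1, knl-2 and sgo-1. The share of all genes with this order was not computed. At hcp-3 and hcp-4 the promoter peak lay 647 and 677 bp upstream of the start. In the joint list of 30000 regions, background included, the bodies of the 7 genes held from 1 to 8 further summits each. The strongest of these had signals from 16.2 at sgo-1 to 31.4 at hcp-1, all below 40.1, the lowest signal in the optimal list. The promoter peak was 105 times the strongest region in the body at sgo-1, 96.6 times at hcp-3, 66.0 times at hcp-1 and 61.2 times at hcp-4. It was 8.16 times at cpar-1, 6.73 times at hcp-2 and 5.33 times at knl-2. The sets were split by the promoter signal itself, so the gap between these ratios follows from that split. The strongest values in the gene bodies overlapped between the sets.

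Within 1000 bp of the genes, weaker optimal peaks were found past the 3′ ends of 3 of them. The share of all genes with such a peak was not computed. At hcp-3 a peak with a signal of 86.6 had its summit 58 bp past the end of the gene, in a coding exon of F58A4.6, and another of 125 lay 893 bp past it, 69 bp from the F58A4.6 start site. The first had 55.4 in replicate 1 and 28.9 in replicate 2, and the latter had 67.0 and 57.9. At knl-2 a peak of 57.8 lay 62 bp past the end, in a coding exon of acdh-3, with 42.1 in replicate 1 and 18.4 at rank 3222 in replicate 2. Another optimal peak past knl-2, with a signal of 56.3 at rank 2013, lay beyond that distance but within 2500 bp. At sgo-1 a peak of 44.5 lay 116 bp past the end, 68 bp from the start of ntp-1, and was at rank 5415 in replicate 1 (signal 15.4) and 2297 in replicate 2 (24.1). These 3′ peaks therefore sit in or near the next gene, and 2 of them were outside the strongest 2825 regions of a replicate, that at sgo-1 in replicate 1 and that at knl-2 in replicate 2.

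**Figure D4:**
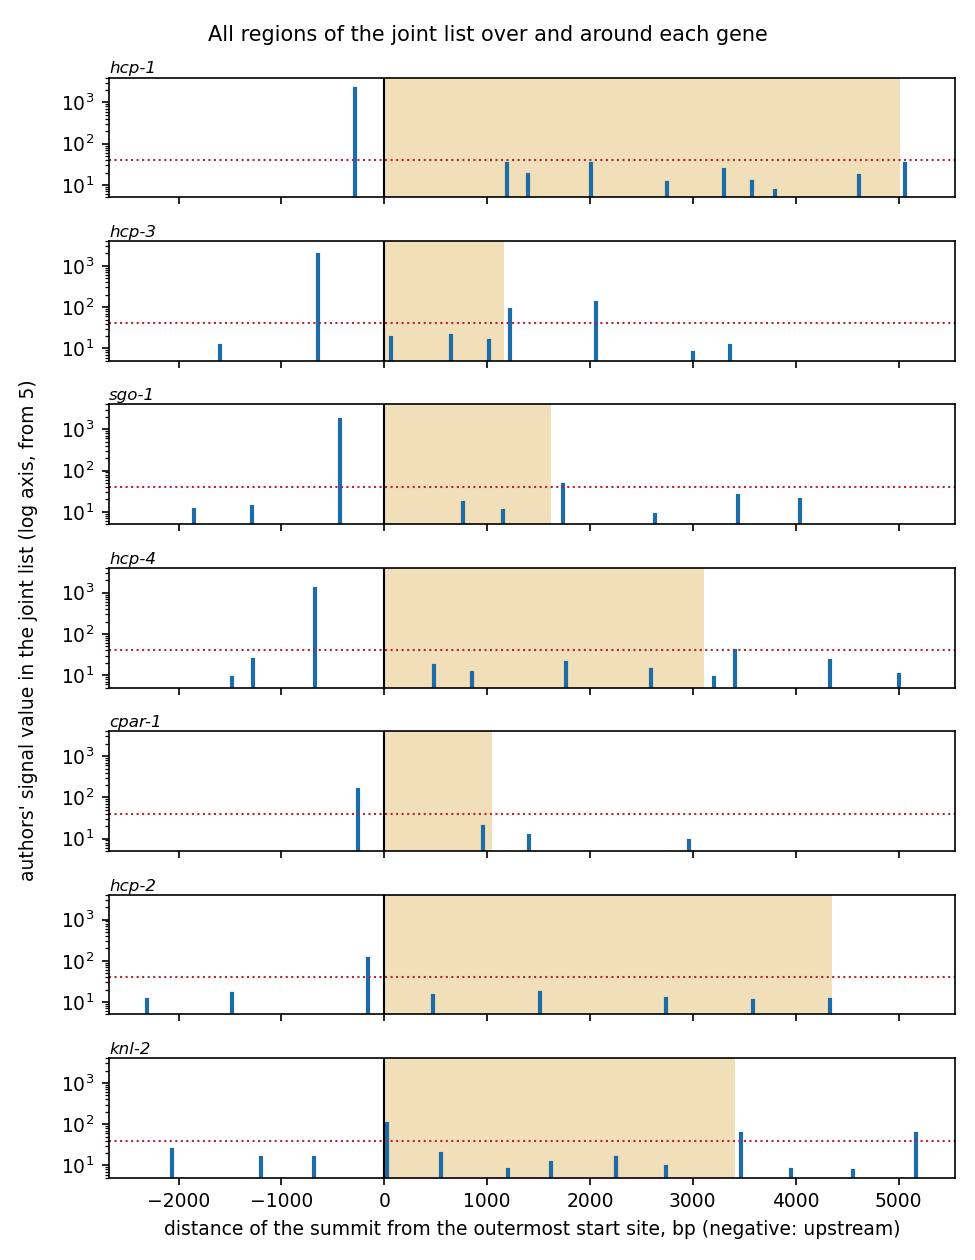
Every region of the joint list from 2500 bp before to 2500 bp after each of the 7 genes, at the distance in bp of its summit from the outermost start site (black line), with its signal value on a log axis that starts at 5. The gene is shaded and the dotted line is the lowest optimal signal, 40.1; no summit inside a gene reaches it other than the knl-2 peak 24 bp past the start.

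An E2F core was within 100 bp of the summit in 6 of the 7 genes, all except cpar-1. Of the 2802 nuclear optimal peaks 832 (29.7%) held it, as did 7.71% of 5604 windows of the same 201 bp placed 500 bp to either side. Among the 46 peaks with a signal of at least 1000 it was in 39 (84.8%), and among the 616 with a signal from 100 to 200 in 219 (35.6%). The 4 strong members and 2 of the 3 weaker ones, hcp-2 and knl-2, held it. The form was TTCCCGC at hcp-1 and hcp-4, TTCGCGC at hcp-3, sgo-1 and hcp-2, and TTGCCGC at knl-2.

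The cores lay close to the summits, with the nearest centre from 7 bp away at knl-2 to 29 bp away at hcp-4. The median over these 6 genes was 10.5 bp, with quartiles at 8 and 19 bp. Over the 832 peaks with a core it was 21 bp, with quartiles at 11 and 37 bp, so the ranges overlap. At hcp-1 there were 2 cores, both on the strand opposite to the gene and centred 13 bp before and 18 bp past the summit. The TTTGAA of hcp-1 lay between them, centred 2.5 bp past the summit. The core was read on the strand opposite to the gene at hcp-1, hcp-2, hcp-3 and hcp-4, and on the strand of the gene at knl-2 and sgo-1.

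A CHR-like stretch (TTTGAA or TTCGAA on either strand) was within 100 bp of the summit in 6 of the 7, all except sgo-1. It was common elsewhere, with 58.7% of all nuclear optimal peaks and 48.3% of the windows to either side. Its centre lay 4.5 bp from the summit at hcp-3, 24.5 bp at cpar-1, 25.5 bp at knl-2 and 34.5 bp at hcp-2 and hcp-4. Both kinds of stretch were thus present at 5 of the genes, an E2F core alone at sgo-1 and a CHR-like stretch alone at cpar-1. A match of letters is a description and does not show that a factor sits there.

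**Figure D5:**
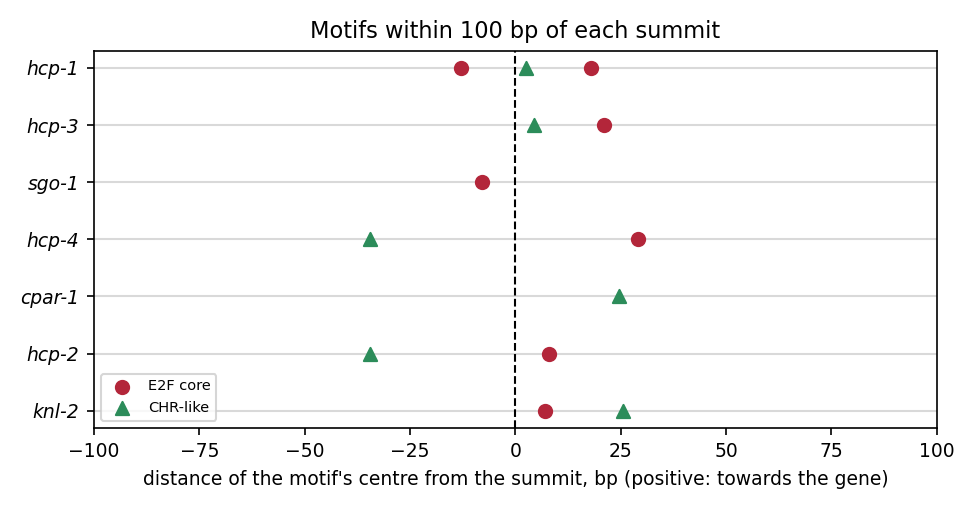
Centres of E2F cores (circles) and CHR-like stretches (triangles) within 100 bp of the summit of each gene's peak, in bp from the summit and in the direction of the gene. The cores lie within 29 bp of the summit at 6 genes, and cpar-1 has a CHR-like stretch only.

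Partners of these proteins were then looked up with the same rule. Of 33 genes in 4 lists, 29 had a peak (87.9%, against the 13.8% of all genes), with a median signal of 251. The lists were drawn up with earlier results of these data known, so they do not stand as independent support. In the list for loading of the centromeric histone and its chaperones, 4 of 4 had a peak. Among them were nasp-2 (1967), coding for a histone chaperone-like protein, the RbAp46/48 gene lin-53 (894) and nasp-1 (365). The list also holds hcp-6 (348), a condensin gene and not that of a histone chaperone, so the count is not of chaperones alone.

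Of the KMN network, which binds microtubules at the outer kinetochore, 8 of 10 had a peak, with a median of 136. The strongest were knl-3 (749), kbp-4 (564) and knl-1 (202), whereas mis-12 and kbp-2 had no optimal peak and joint regions of 19.7 and 23.3 as their strongest. Corona and microtubule partners had a peak in 7 of 7 cases, led by the depolymerising kinesin gene klp-7 (1343), with a summit 925 bp upstream, rod-1 (1274) of the RZZ complex and czw-1 (436) of the same complex.

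In the list of chromosomal passengers, cohesin and phosphatase genes linked to shugoshin, 10 of 12 had a peak. The strongest was that of rec-8 (1021), which codes for a meiotic kleisin subunit of cohesin, followed by coh-4 (933) and its relative coh-3 (649). The PP2A subunit genes paa-1 and let-92 had none, with joint regions of 34.0 and 19.4 as their strongest. The signal of hcp-1 was above that of all 33 partners, those of hcp-3 and sgo-1 were above all but that of nasp-2, and those of knl-2, hcp-2 and cpar-1 were below the median of the partners.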

How the data were processed

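Signal values (per region, scale unstated), with −log10 q-values and summit offsets, are as the authors deposited them in narrowPeak lists on build ce11. Each list names its own regions: 1 per replicate against a shared control, 1 called on both replicates, and 1 cut from the latter by irreproducible discovery rate (the optimal list), per the texts deposited with the samples. Aligner, caller and thresholds were not given in the sources used here, and the control was not analysed here. The deposited −log10 q-value was not used for ranking. Lists on ce10 were not used.

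Genes were taken from Ensembl release 115 (WBcel235, same assembly as ce11; sequence from RefSeq), as 29314 start sites of 19973 genes; mitochondrial regions were left out. Coordinates count from 1. A gene's value is that of its strongest peak, and a replicate's is that of its strongest region overlapping by at least 1 bp. Local alignment used Biopython 1.88 (match 2, mismatch -3, gap -5 and -2). Other tools were Python 3.11.15, NumPy 2.4.6, pandas 2.3.3 and Matplotlib 3.10.9. Peak assignment and motif search were checked on planted data.

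With 1 group of 2 replicates no test was made; values are described with both replicates. That the replicates are biological is per the labels. Members, lists and alternatives were chosen with earlier results of these data known. Named genes are the members, genes whose start lies within 1000 bp of a member summit, and rank neighbours of hcp-1, hcp-3 and sgo-1. In each partner list the 3 strongest and first 2 without a peak are also named. A pseudogene, hcp-6 and genes past 3′ ends were named after their values were seen.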

Additional observations from a re-analysis of the deposited data

How the results depend on the processing

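Within 200 bp of a start site 2 of the 7 genes had a peak (hcp-2 and knl-2), as did 16 of 33 partners and 1183 of all genes; the cause was the shorter window. All 7 genes and 26 partners had a peak in the stronger part of the optimal list (1412 peaks), with 1647 of all genes. With each peak given only to the nearest start site, 6 of the 7 had one, since the hcp-2 peak went to atl-1, with 22 partners and 2042 of all genes. With 500 bp the counts were 5 of the 7 genes, 25 partners and 2187 of all genes, and with outermost start sites 7, 27 and 2619. Without a replicate, all 7 genes had a peak in both cases, partners ranged from 28 to 29 and all genes from 2684 to 2690. For the 7 genes this rests on the same ranks in each replicate list as above, so it adds no independent support. The E2F core was at 6 genes within 50 bp of the summit or anywhere in the peak, and at 4 in an 8-base form with another T in front. Of all nuclear optimal peaks, 24.8% held the core within 50 bp, 30.3% held it anywhere in the peak and 16.6% held the 8-base form. A 5-base form without the leading T bases, added after the data were seen, was at 7, but also in 77.8% of all peaks. The median log2 replicate ratio of 0.37 fell to 0.0566 when signals were divided by the median over optimal peaks of the same replicate, which removes the shift between lists, and stayed at 0.37 under other overlap rules, where 50% reciprocal overlap paired 5 of the 7 peaks. No paired analysis was possible because there is 1 group. Depth is unknown, so a missing peak, as at mis-12 or let-92, does not show absence of binding.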
